A study of Mus musculus with 4 samples.

Results

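Galectins are small proteins that bind beta-galactoside sugars on glycoproteins, and this account follows 5 of them, Lgals1, Lgals3, Lgals7, Lgals8 and Lgals9, together with Lgals3bp, a secreted glycoprotein that galectins bind. The 6 genes were chosen by symbol from the 20457 genes with counts. The reason for the choice was a measured value, because Lgals7 had been seen to mark the tumour spots of the untreated group. The levels of Lgals7, and the difference of every member between tumour and brain spots, are therefore given as descriptions with no test. Only the difference between treatment groups in the other 5 members was tested.

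The tissue was mouse brain that had been inoculated with tumour cells, had the tumour resected and was taken on day 11. Spatial transcripts were read with Visium, a slide of printed spots that each capture RNA from a small patch of tissue, here through gene-specific probe pairs on fixed and embedded sections. A spot can hold several cells of different types. There were 4 capture areas, 2 labelled Vehicle (Vehicle 1+4 and Vehicle 2+3) and 2 labelled TREAT (TREAT 1+4 and TREAT 2+3). The series text describes hydrogel-treated and non-treated animals, 4 animals in all, with both groups carrying the inoculated and resected tumour. Each area held 2 pieces of tissue, and the labels do not say which animal a piece came from, so p-values measure only the spread between capture areas. The series title names the tumour as glioblastoma. The tumour line and the strain, sex and age of the mice are not given in the sources used here.

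Galectins act outside and inside cells. Secreted galectins crosslink glycoproteins on cell surfaces and in the matrix, and are known in brain tumours for effects on invasion, vessel growth and T cell survival, while cytosolic galectins take part in the handling of damaged lysosomes. The family is divided by structure. Galectin-1 and galectin-7 are prototype galectins with a single carbohydrate-binding domain. Galectin-3 is the chimera type, with a collagen-like tail, and galectin-8 and galectin-9 are tandem-repeat galectins with a pair of linked domains.

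Depth and tissue differed between the areas. Spots over tissue numbered 3013 to 3488 per area, and spots with at least 500 UMIs (molecules counted once each) numbered 13003 in all. The median was 7310 and 8377 UMIs per spot in the Vehicle areas and 14986.5 and 12248 in the TREAT areas. Tumour spots were the 2 clusters whose leading genes held at least 3 proliferation markers, drawn with all galectin genes left out of the clustering. They numbered 905 in Vehicle 1+4, 1249 in Vehicle 2+3, 180 in TREAT 1+4 and 556 in TREAT 2+3. Summed proliferation markers were 2433 to 2862 CPM in tumour spots and 273 to 394 CPM in brain spots. CPM are the UMIs of a gene scaled to the same total in every sum of spots. One of the clusters, led by Hist4h4, Col2a1 and Atf5, held 905 and 1237 of the Vehicle tumour spots but 1 and 4 of the TREAT ones. The other, led by Gbp2b and Col9a1, held 0 and 12 of the Vehicle spots and 179 and 552 of the TREAT spots. A comparison of TREAT with Vehicle tumour spots is thus almost wholly a comparison of these clusters. The left piece of TREAT 1+4 held only 3 tumour spots. Spot barcodes repeat on every capture area by design, and 1825 were used in all 4.

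The genes lie on 5 chromosomes, given here in the GRCm38.p6 RefSeq annotation, the patch release of the mm10 build named in the submitters' processing notes. Lgals7 spans chr7:28863796-28866285, Lgals9 chr11:78962979-78984924 and Lgals3bp chr11:118392747-118401959. Lgals8 spans chr13:12439402-12464977, Lgals3 chr14:47373860-47386167 and Lgals1 chr15:78926725-78930465. Lgals9 and Lgals3bp share a chromosome but are not neighbours. Probe counts do not scale with gene length, so levels are compared between areas and regions within a gene and never between genes.

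Of the 6 genes, 5 had levels in tumour spots many times those in brain spots in each of the 4 areas, and Lgals8 was the exception. Lgals7 had the largest difference, with log2 tumour minus brain values of 5.76 and 5.13 in Vehicle and 6.04 and 5.06 in TREAT (mean 5.50 ± 0.48, SD, n = 4 areas, a 45.2-fold difference). Lgals1 followed at 4.91 ± 0.65 (30.1-fold), and Lgals3 at 4.57 ± 0.64 (23.7-fold). Lgals7 was above both in each of the 4 areas. Lgals1 and Lgals3 lay within their spread of each other, and Lgals3 was the higher of them in Vehicle 1+4 (4.98 against 4.58). Lgals9 was at 3.51 ± 0.62 (11.4-fold) and Lgals3bp at 2.59 ± 0.54 (6.01-fold). Lgals8 differed by only 0.55 ± 0.12 (1.46-fold), which was still in the same direction in 4 of 4 areas. A spot sum cannot tell fewer cells of a type from less RNA per cell, here or in any later comparison.

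**Figure D1:**
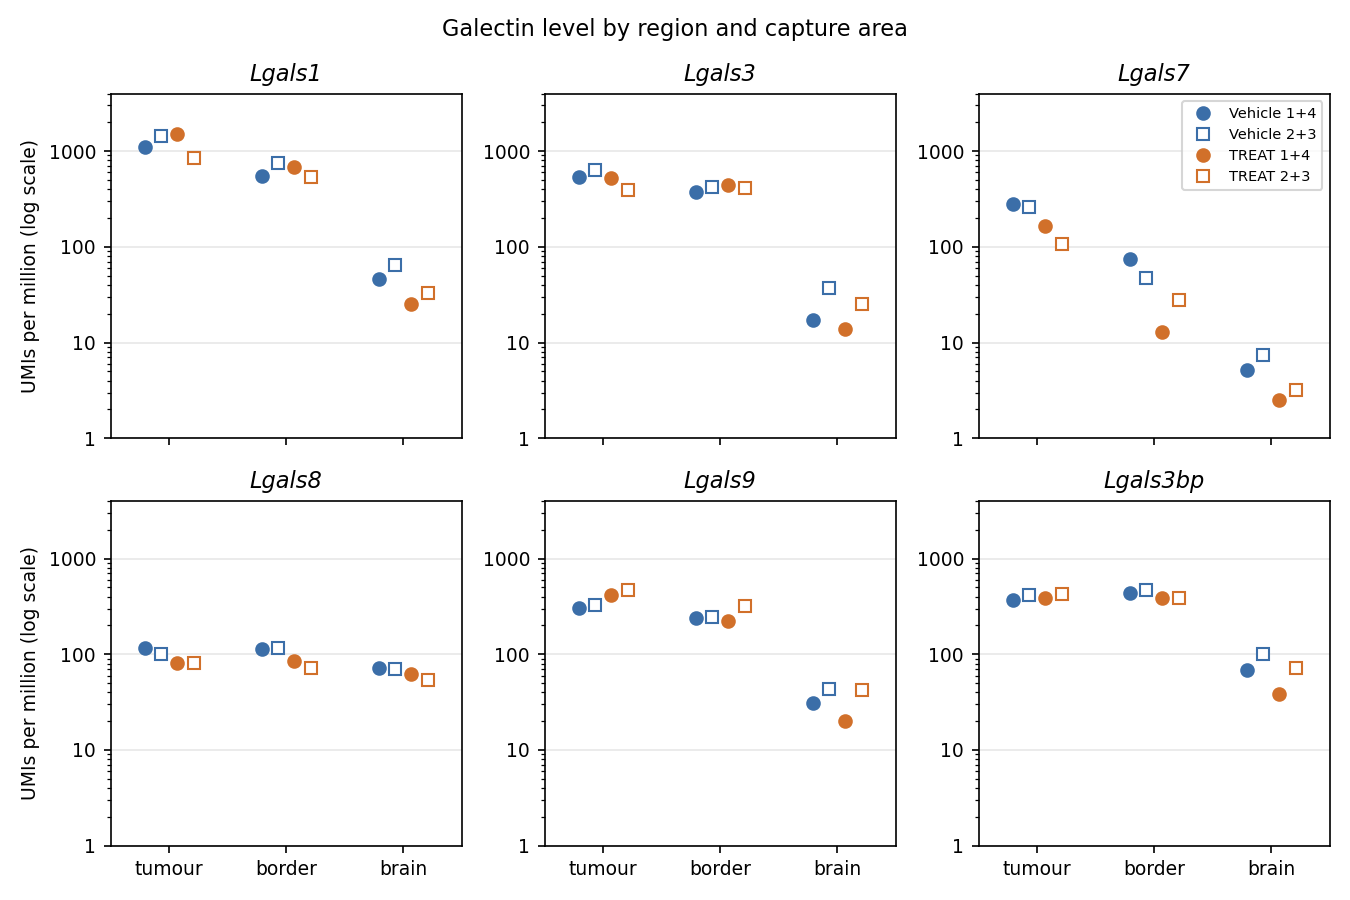
Level of each member in CPM (log axis) in tumour, border and brain spots, with 1 point for each capture area and no error bars. The tumour points of every gene but Lgals8 stand far above the brain points, Lgals7 is lower in both TREAT areas than in both Vehicle areas in all 3 regions, and Lgals9 is higher in both TREAT areas in tumour spots only.

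Lgals7 encodes galectin-7, known as the galectin of keratinocytes and stratified epithelia and as a gene that p53 can induce. Its level in tumour spots was 283 CPM in Vehicle 1+4 and 263 CPM in Vehicle 2+3, against 166 CPM in TREAT 1+4 and 108 CPM in TREAT 2+3. The groups did not overlap, and the TREAT mean was 0.501 of the Vehicle mean. Lgals7 was picked because it marks Vehicle tumour spots, so this order is no independent evidence. The 7 tissue pieces with enough tumour spots were at 304, 261, 274 and 245 CPM in Vehicle, and at 170, 157 and 90.3 CPM in TREAT. Pieces share the library of their area and are not extra replicates, here or for the other members. The fitted log2 difference was -1.47 ± 0.21 (SE, given without a test), and -1.003 when areas were scaled by library totals. In brain spots Lgals7 was at 5.18 and 7.47 CPM in Vehicle and 2.505 and 3.22 CPM in TREAT, again without overlap.

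The keratinocyte programme that galectin-7 is usually found with was not seen in the tumour spots. Of 18 genes of the keratinocyte and squamous epithelium list, 17 were under 5 CPM in the tumour spots of every area. The 8 keratin genes of the list reached at most 2.92 CPM, and Krt5, Krt14 and Trp63, which define basal keratinocytes, at most 1.98 CPM. The exception was Jup, a junction protein of many cell types, at 42.8 and 37.4 CPM in Vehicle and 31.7 and 26.0 CPM in TREAT, below its 115 to 135 CPM in brain spots. The list's summed level was 52.7 to 54.8 CPM in tumour and 169 to 187 CPM in brain. Lgals7 therefore stood at its tumour level with the defining keratinocyte genes at or near 0. The p53 target list moved with Lgals7 between the groups: its summed level in tumour spots was 1172 and 1174 CPM in Vehicle and 673 and 796 CPM in TREAT, and 7 of its 13 genes were called lower in TREAT in edgeR's test with TMM scaling, none higher, where 35.6% of genes at 10 to 100 CPM and 46.3% of genes at 100 CPM or more were called lower. Other lists moved as well. Hypoxia genes summed to 1083 and 1001 CPM in Vehicle and 749 and 768 CPM in TREAT, with 7 of 13 called lower. The part of these lists in the Lgals7 difference was not tested.

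Lgals1 encodes galectin-1, the prototype galectin best known in glioma. It was at 1108 and 1454 CPM in the Vehicle tumour spots and at 1501 and 847 CPM in the TREAT tumour spots. The groups overlapped fully, with both the highest and the lowest area in TREAT. In edgeR's quasi-likelihood test the difference was -0.58 ± 0.24 (log2, SE) with an adjusted p of 0.0627, and it was not called. Without TREAT 1+4 it was -1.004 with an adjusted p of 1.45e-06. It was also called with all areas when spots needed at least 1000 UMIs (-0.58, adjusted p = 0.0466) and when the border was counted as tumour (-0.74, adjusted p = 0.0468), so the call changes with several choices. The 2 pieces of TREAT 2+3 were at 643 and 919 CPM, below the 1056 to 1502 CPM of the 4 Vehicle pieces, while the right piece of TREAT 1+4 was at 1490 CPM.

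Lgals3 encodes galectin-3, a marker of activated macrophages and microglia and of mesenchymal tumour cells. It was at 537 and 635 CPM in the Vehicle tumour spots and at 522 and 390 CPM in the TREAT tumour spots. The groups did not overlap, but TREAT 1+4 lay only just under Vehicle 1+4. Lgals3 was called lower in TREAT, by -0.82 ± 0.19 with an adjusted p of 0.00398 in edgeR's quasi-likelihood test. This fall was already known from an earlier analysis of the same files and is no independent evidence. Macrophage markers summed to 373 and 457 CPM in Vehicle tumour spots and 447 and 320 CPM in TREAT, and overlapped. Disease-associated microglia markers summed to 4536 and 4808 CPM in Vehicle and 3919 and 3623 CPM in TREAT, without overlap, and 7 of 12 were called lower. Mesenchymal glioma markers overlapped, at 6407 and 6043 CPM against 6267 and 5080 CPM, and 10 of 16 were called lower. Of all genes in this comparison, 35.6% of those at 10 to 100 CPM and 46.3% of those at 100 CPM or more were called lower. The part of these lists in the Lgals3 difference was not tested.

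Lgals8 encodes galectin-8, which marks damaged lysosomes and endosomes for autophagy. It was at 115 and 100.2 CPM in the Vehicle tumour spots and at 81.8 and 81.1 CPM in the TREAT tumour spots. The groups did not overlap. Lgals8 was called lower in TREAT, by -0.87 ± 0.18 with an adjusted p of 0.00137 in edgeR's quasi-likelihood test. Without Vehicle 1+4 the adjusted p was 0.0525, and the call was lost.

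Lgals9 encodes galectin-9, a ligand of the T cell receptor Tim-3 (Havcr2) that interferon is known to induce. It was at 303 and 328 CPM in the Vehicle tumour spots and at 419.9 and 465 CPM in the TREAT tumour spots, the opposite order to Lgals7. All 3 TREAT pieces, at 423, 483 and 459 CPM, were above all 4 Vehicle pieces, at 302 to 328 CPM. The fitted difference was nevertheless 0.02 ± 0.17 with an adjusted p of 0.921 in edgeR's quasi-likelihood test, because the fit does not scale by library totals. The interferon-stimulated list was ordered the same way in CPM, with summed levels of 8622 and 8853 in Vehicle tumour spots and 11138 and 10664 in TREAT, and 1 of its 17 measured genes was called higher and 2 lower, both under the shares of all genes tested (12.8% higher and 20.4% lower). The part of that list in the Lgals9 values was not tested.

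Lgals3bp encodes the galectin-3-binding protein, a secreted glycoprotein that interferon is also known to induce. It was at 372 and 412 CPM in the Vehicle tumour spots and at 383 and 429 CPM in the TREAT tumour spots. The groups overlapped. The difference was -0.41 ± 0.18 with an adjusted p of 0.0734 in edgeR's quasi-likelihood test, and it was not called. Without TREAT 2+3 it was -0.47 with an adjusted p of 0.0408.

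The calls in tumour spots need the background beside them. Of 19444 genes tested, 33.1% were called in either direction, 12.8% higher and 20.4% lower in TREAT. The called genes numbered 6444, and 2556 without Vehicle 1+4. Of the 5 tested members, 2 were called lower and none higher. The share of lower genes depended on level: 46.3% of the 2313 genes with a mean of at least 100 CPM were called lower and 0.562% higher, and of the 7517 genes from 10 to 100 CPM 35.6% were called lower. Genes under 10 CPM had a median log2 difference of 0.73, and genes of at least 100 CPM a median of -0.43. Among genes of their own level, 2 lower calls in 5 are near the background and are not a result about galectins.

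The fold depends on the scaling, which shifts all genes together. The fit used TMM scaling, which sets the median of all genes near 0 (0.04), whereas scaling by library totals, as CPM does, sets it at 0.50. Measured from that median, Lgals3 was at -0.86 under both scalings, Lgals8 at -0.91 and -0.90, Lgals1 at -0.62 and -0.63, Lgals3bp at -0.45 under both and Lgals9 at -0.01 under both. These values match by construction, since the scalings cover the same genes and differ by 1 factor per area. The median includes 9614 genes under 10 CPM, whose own median was 0.73 with TMM. Under library totals Lgals9 was called higher (0.49, adjusted p = 0.0279 in edgeR), and neither Lgals3 (-0.36, adjusted p = 0.118) nor Lgals8 (-0.40, adjusted p = 0.0522) was called. When TMM was computed over the genes with a mean of at least 10 CPM, Lgals8 was still called (-0.50, adjusted p = 0.0389), whereas Lgals3 (-0.46, adjusted p = 0.0952) and Lgals9 (0.40, adjusted p = 0.0958) were not. The median of the genes tested there was 0.01, so the distance of Lgals9 and Lgals3 from the median depends on which genes are included.

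**Figure D2:**
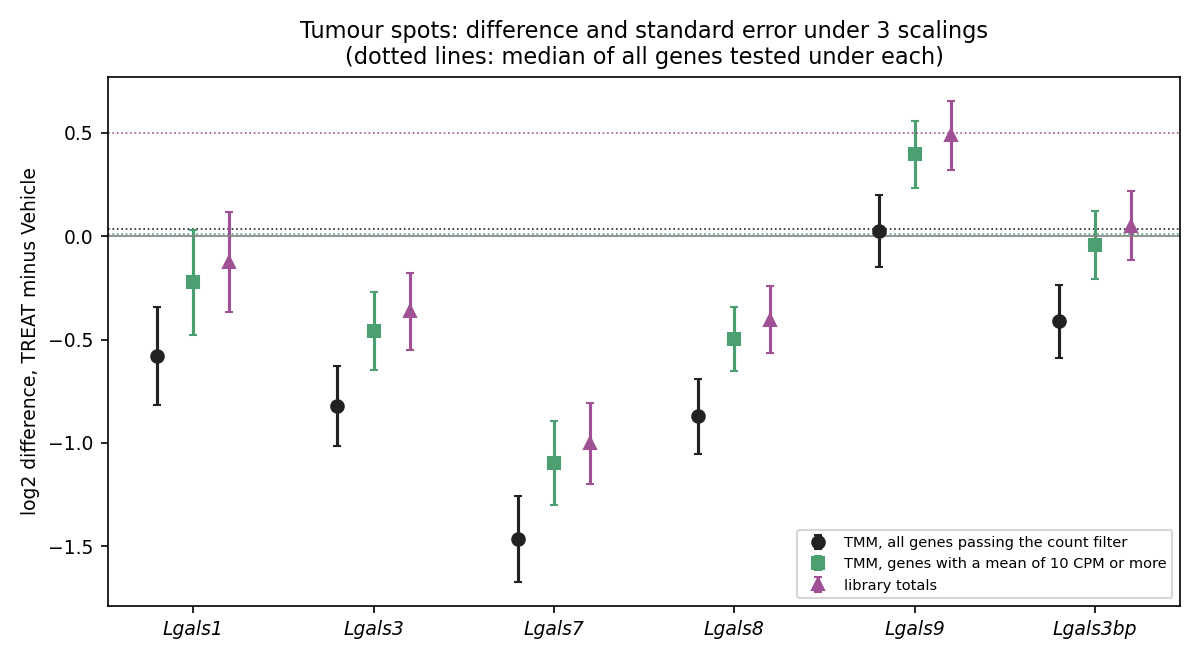
Log2 difference of TREAT minus Vehicle in tumour spots for each member, with its standard error, under TMM over all genes (black), TMM over genes of at least 10 CPM (green) and library totals (purple). Dotted lines give the median of all genes tested under each scaling, 0.04, 0.01 and 0.50; the scaling moves all members together, and the order from Lgals7 (lowest) to Lgals9 (highest) is the same under each.

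Ratios of members within a sum do not depend on scaling, and they put Lgals9 and Lgals7 at opposite ends of the 6 members. The log2 ratio of Lgals7 to Lgals9 UMIs in tumour spots was -0.10 and -0.32 in Vehicle and -1.34 and -2.11 in TREAT. The ratio of Lgals3 to Lgals9 was 0.83 and 0.95 in Vehicle and 0.31 and -0.25 in TREAT, and that of Lgals8 to Lgals9 was -1.39 and -1.71 against -2.36 and -2.52. All 5 ratios to Lgals9 were lower in both TREAT areas than in both Vehicle areas, and all 5 ratios of another member to Lgals7 were higher in both TREAT areas. Ratios to the same gene share its counts and are not 5 separate observations. Lgals7 was picked for its level in Vehicle tumour spots, so the direction of its ratios is no independent evidence. The share of all gene pairs whose ratio separates the groups was not computed, so these counts are not a result about galectins. For Lgals1 to Lgals9 the gap was only between 1.87 (Vehicle 1+4) and 1.84 (TREAT 1+4). Lgals3bp lay between the extremes: the log2 ratio of Lgals9 to Lgals3bp was -0.30 and -0.33 in Vehicle and 0.13 and 0.12 in TREAT. The ratio of Lgals3 to Lgals8 did not separate the groups (2.22 and 2.66 against 2.67 and 2.27). With 2 areas against 2 a two-sided exact permutation test cannot go below p = 0.333, so no test is given.

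**Figure D3:**
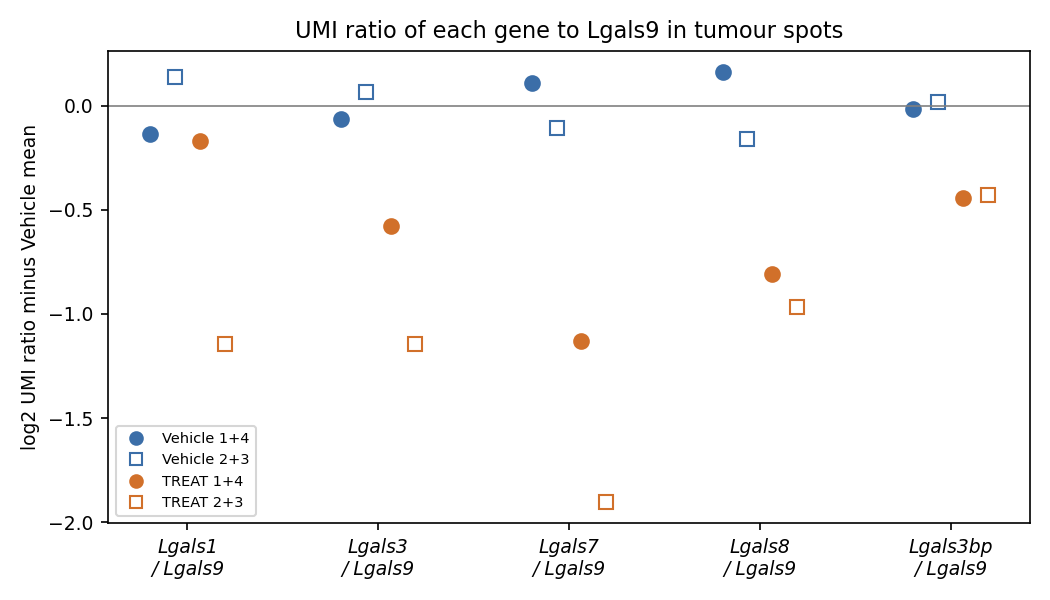
Log2 ratio of each member's UMIs to Lgals9 UMIs in tumour spots, minus the mean of the Vehicle areas, with 1 point for each capture area. All TREAT points lie under the Vehicle points, farthest for Lgals7 and least for Lgals1 in TREAT 1+4.

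The stretches before 3 of the genes show what sequence sits beside these patterns. RefSeq promoter windows were at hand for 5 of the 6 members (Lgals3, Lgals7, Lgals8, Lgals9 and Lgals3bp). Those of Lgals9, Lgals3bp and Lgals3 are printed because they lie wholly before the annotated gene and belong to genes that differed in their order between the groups. Each is 250 bases long, read 5′ to 3′ on the gene's strand up to the base before the start, with capitals marking a match to the interferon-stimulated response element core on either strand, which is GAAA, any 2 bases and GAAA again. The Lgals9 window is chr11:78984925-78985174 (minus strand), the Lgals3bp window chr11:118401960-118402209 (minus strand) and the Lgals3 window chr14:47373610-47373859 (plus strand).
Lgals9: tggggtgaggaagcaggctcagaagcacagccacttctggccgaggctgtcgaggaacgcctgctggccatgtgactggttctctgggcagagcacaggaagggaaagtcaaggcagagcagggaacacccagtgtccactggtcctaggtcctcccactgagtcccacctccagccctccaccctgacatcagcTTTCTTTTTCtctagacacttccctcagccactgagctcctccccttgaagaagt
Lgals3bp: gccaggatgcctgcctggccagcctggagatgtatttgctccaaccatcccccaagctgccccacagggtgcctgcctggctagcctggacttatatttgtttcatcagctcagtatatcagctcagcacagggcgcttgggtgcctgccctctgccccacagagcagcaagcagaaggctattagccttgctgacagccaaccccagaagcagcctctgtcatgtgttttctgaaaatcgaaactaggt
Lgals3: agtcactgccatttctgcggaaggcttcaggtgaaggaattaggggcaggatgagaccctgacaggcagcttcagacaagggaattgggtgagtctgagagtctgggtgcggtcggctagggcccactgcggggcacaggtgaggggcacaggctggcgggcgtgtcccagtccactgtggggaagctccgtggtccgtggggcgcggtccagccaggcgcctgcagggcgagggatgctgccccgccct

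Lgals9 held the interferon element, 55 to 46 bases before its start and on the opposite strand, and the windows of the other 4 members did not. The element was in 2.98% of the 32851 mouse windows of that length. Among the 18 genes most alike to a member in pattern over regions, 14 had a window and 3 of these held the element: Gbp2 and Irgm1, which are among the 3 genes most like Lgals9, and Tgtp1, which is among those most like Lgals3bp. None of the 5 member windows held the AP-1 element TGANTCA (6.75% of all windows), the STAT element TTCNNNGAA (7.02%), the TATA box TATAAA (12.4%) or the p53 half-site (7.13%), each searched on both strands. Of the same 14 windows, 3 each held the AP-1, STAT and TATA elements and 1 the p53 half-site. A match is a description of letters and not evidence of binding, and no match says only that these letters were not in this window.

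The share of tumour spots with at least 1 UMI kept the order between the groups for Lgals7, Lgals8 and Lgals9 at equal depth. Each spot was thinned to 2000 UMIs for this count. That is scaling by library totals again, so the shares repeat the CPM and are no separate evidence. The share of all genes that kept such an order was not computed. Lgals7 was then found in 41.8% of Vehicle 1+4 tumour spots (95% exact binomial interval 38.5% to 45.1%) and 37.0% of those of Vehicle 2+3 (34.3% to 39.7%). It was found in 23.9% in TREAT 1+4 (17.9% to 30.8%) and 16.9% in TREAT 2+3 (13.9% to 20.3%). Before thinning the median depths were 32695 and 36158.5 UMIs in TREAT and 21032 and 22238 in Vehicle. Lgals9 went the other way, with 44.1% and 47.0% in Vehicle and 55.0% and 57.2% in TREAT. Lgals8 shares were 18.0% and 16.9% in Vehicle and 12.2% and 14.9% in TREAT. Lgals7, Lgals8 and Lgals9 kept their order at 4000 UMIs. Lgals3bp shares were 52.8% and 54.3% in Vehicle and 60.0% and 55.0% in TREAT, without overlap although its CPM overlapped, but 54.3% and 55.0% lay within each other's intervals. Lgals3 shares were 62.4% and 66.2% against 58.9% and 52.3% at 2000 UMIs but overlapped at 4000 UMIs, at 87.2% and 84.9% against 89.4% and 72.3%. Intervals cover counting error within an area only.

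The same shares in brain spots give the background. Brain spots deep enough to be thinned were 1756 of 1900 in Vehicle 1+4, 1538 of 1658 in Vehicle 2+3, all 2641 in TREAT 1+4 and 1662 of 1669 in TREAT 2+3, from median depths of 5130.5 to 14136 UMIs. Lgals7 was found in 1.31% and 1.17% of those of Vehicle and in 0.303% and 0.602% of those of TREAT. Lgals9 was found in 4.17% to 7.76% of brain spots and Lgals8 in 10.7% to 14.6%. For Lgals8 these brain shares were close to the tumour shares of 12.2% to 18.0%. Without thinning, Lgals7 was found in 97.2% and 94.96% of Vehicle tumour spots and 96.1% and 88.3% of TREAT tumour spots, so at full depth the groups overlapped and most tumour spots held some.

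Outside the tumour every member was lower beyond 10 spot steps than at 1 to 2 steps in each area, though not at every step between. Brain and border spots were grouped by their distance from the nearest tumour spot. At 1 to 2 steps Lgals7 was at 74.6 and 65.1 CPM in Vehicle and 21.2 and 30.4 CPM in TREAT, and at 3 to 5 steps at 8.22 and 8.50 against 6.72 and 3.43 CPM. At 6 to 10 steps it was at 3.61 and 9.91 CPM in Vehicle and 2.52 and 3.48 CPM in TREAT. Beyond 10 steps it was at 4.32 and 8.03 CPM in Vehicle and 2.47 and 2.59 CPM in TREAT. Most of the drop outside the tumour thus lay between the spots at 1 to 2 and those at 3 to 5 steps in each area.

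The other members differed in how steeply they fell. Lgals1 also fell steeply, from 514 to 1346 CPM at 1 to 2 steps to 74.5 to 208 CPM at 3 to 5 steps. Beyond 10 steps Lgals1 was at 17.6 to 92.6 CPM. Lgals3bp was at 387 to 489 CPM at 1 to 2 steps, close to or above its level inside the tumour, and at 148.0 to 259.5 CPM at 3 to 5 steps. That nearest band includes border spots. With brain spots alone, in the areas with enough of them, Lgals3bp was at 210 CPM (Vehicle 1+4) and 290 CPM (TREAT 2+3) there. Both values are below its level in the tumour spots of the same area. Lgals9 was at 230 to 324 CPM at 1 to 2 steps, at 71.1 to 121 CPM at 3 to 5 steps and at 17.1 to 43.9 CPM beyond 10 steps. Lgals8 went only from 69.7 to 112 CPM near the tumour to 54.6 to 72.5 CPM beyond 10 steps. Lgals3 was higher at 1 to 2 steps than within the tumour in TREAT 1+4 (629.6 against 522 CPM) and TREAT 2+3 (421 against 390.3 CPM), and lower in both Vehicle areas (333 against 537 CPM and 455 against 635 CPM). Vehicle 2+3 kept the highest levels beyond 10 steps of all 4 areas for each of the 6 genes, for example 57.3 CPM of Lgals3 against 11.2 to 18.0 CPM. The size of that gap rests on border spots: with brain spots alone, 879 of the 911 in Vehicle 2+3, Lgals3 was at 25.9 CPM against 9.88 to 17.0 CPM, and Lgals1 at 44.7 CPM instead of 92.6 CPM.

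**Figure D4:**
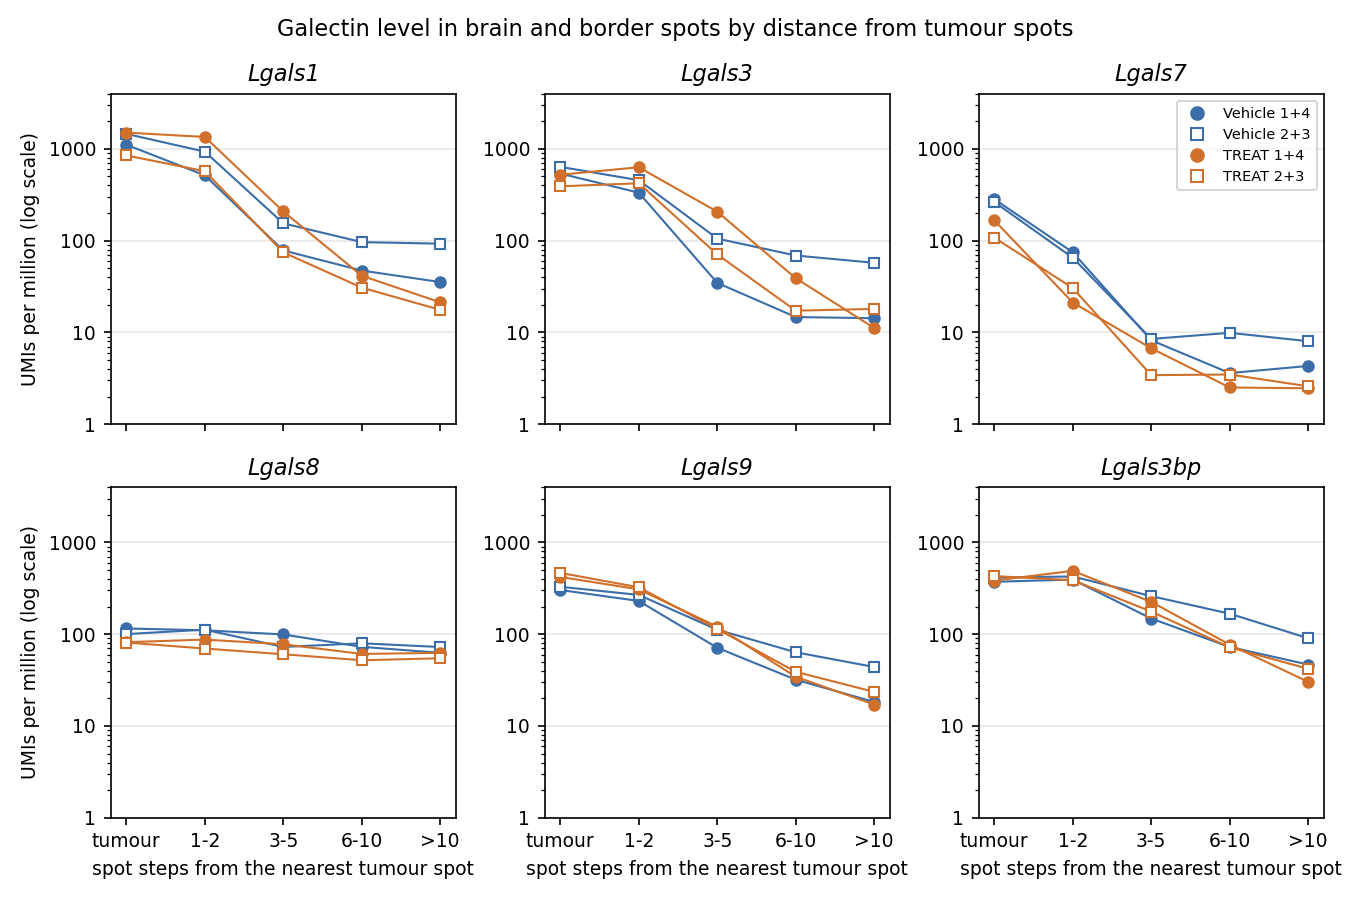
Level of each member in CPM (log axis) in tumour spots and in brain and border spots at 1 to 2, 3 to 5, 6 to 10 and over 10 spot steps from the nearest tumour spot, with 1 line for each capture area. Lgals7 and Lgals1 drop steeply within 5 steps, and Lgals8 is nearly flat. Lgals3bp stays near its tumour level at 1 to 2 steps, where the spots include the border.

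The border, a cluster with the reactive glia genes Serpina3n, S1pr3 and Pdpn among its 10 leading genes, separated the members further. Border spots also carried the tumour's markers, with 1423 CPM of proliferation and 5890 CPM of mesenchymal glioma genes. Lgals3bp was as high there (440.0, 466, 391 and 387 CPM, in the order Vehicle 1+4, Vehicle 2+3, TREAT 1+4, TREAT 2+3) as in the tumour. Lgals3 was at 371 to 445 CPM and Lgals9 at 221 to 320 CPM in the border. Lgals7 was at 74.2 and 47.4 CPM in the Vehicle border and 12.9 and 28.0 CPM in the TREAT border, without overlap. Lgals8 was also lower in both TREAT areas there, at 113 and 115 CPM against 84.9 and 71.9 CPM.

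Across all regions with at least 20 spots the order was much the same for 4 members. Lgals1, Lgals3, Lgals7 and Lgals9 were highest in tumour spots and next in immunoglobulin-rich spots, a cluster led by Igha, Ighg2b and Igkc. For Lgals7 these means were 205 ± 82.5 CPM (SD, n = 4 areas) and 162 ± 78.8 CPM (n = 3), and the areas overlapped. The immunoglobulin-rich spots had 228 and 183 CPM of Lgals7 in Vehicle 1+4 and Vehicle 2+3 and 74.7 CPM in TREAT 1+4, the only TREAT area with enough of them. These spots also carried the tumour's markers, with 2455 CPM of proliferation and 6304 CPM of mesenchymal glioma genes. Lgals1 was at 1227 ± 308 and 1204 ± 45.1 CPM in these regions, also with overlap. Among the named brain regions, spots rich in oligodendrocyte genes had the most Lgals3, 91.5 ± 36.6 CPM (n = 4), which overlapped the next region, choroid plexus. The lowest level of Lgals1, Lgals3, Lgals7, Lgals8 and Lgals3bp was in an unnamed cluster led by Lypd1, with Lgals3 at 6.52 ± 4.89 CPM (n = 3).

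Lgals8 and Lgals3bp had other orders. For Lgals8 the regions from border (96.4 ± 21.5 CPM) down to striatum (47.5 ± 6.65 CPM, n = 2) each overlapped the next, and the cluster led by Lypd1 came last at 40.2 ± 4.11 CPM, within the range of hippocampus and cerebral cortex. Hypothalamic spots, with 94.4 ± 13.3 CPM of Lgals8 (n = 3), were as high as tumour spots, with 94.6 ± 16.4 CPM (n = 4). Lgals3bp was highest in choroid plexus spots, at 545 CPM in the only area with enough of them, TREAT 2+3. Border (421 ± 38.4 CPM) and tumour (399 ± 26.0 CPM) followed and overlapped.

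Treatment groups differed less clearly in brain spots, and the brain regions under the areas were not the same. Striatum spots numbered 0 and 4 in the Vehicle areas and 210 and 164 in the TREAT areas, and striatum markers summed to 273 and 282 CPM against 990 and 1032 CPM in brain spots. With striatum left out of the brain spots, edgeR still called no gene, and the difference of Lgals1 was -1.07 (adjusted p = 0.159). No gene of 19042 was called by edgeR (0%), although 3857 had an unadjusted p under 0.05, and DESeq2 called 483. Lgals1 was at 46.2 and 64.4 CPM in Vehicle brain spots and 25.5 and 33.0 CPM in TREAT, without overlap. Lgals8 did not overlap either, at 71.4 and 70.3 CPM in Vehicle and 62.1 and 54.2 CPM in TREAT. The difference of Lgals1 was -1.08 ± 0.20 with an adjusted p of 0.133 in edgeR and of 0.000882 in DESeq2, so the call rests on the tool. The adjusted p-values of the other 4 tested members in edgeR were 0.161 (Lgals8) to 0.481 (Lgals9). In the fits without 1 area the difference was -1.30 to -0.84 for Lgals1 and -0.53 to -0.34 for Lgals8. It was -1.04 to 0.02 for Lgals9 and -1.30 to -0.39 for Lgals3bp. Lgals3, at 17.0 and 37.5 CPM in Vehicle and 13.8 and 25.0 CPM in TREAT, depended on a Vehicle area: its difference was -0.65 ± 0.39 with all areas and 0.00 without Vehicle 2+3.

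The brain values of Lgals9 followed the areas and not the groups. Lgals9 was at 31.1 and 43.9 CPM in Vehicle and 20.3 and 42.0 CPM in TREAT, and the groups overlapped. The interferon-stimulated list had the same order over the areas in brain spots, at 539 and 776 CPM in Vehicle and 281 and 697 CPM in TREAT, and its part in the Lgals9 values was not tested. Lgals3bp had this order as well, at 69.1 and 101.3 CPM in Vehicle and 38.3 and 71.7 CPM in TREAT.

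Over the whole tissue, 5 members were lower in both TREAT areas than in both Vehicle areas, in sections that held fewer tumour spots, and Lgals9 overlapped. The share of all genes ordered this way was not computed, so the count of 5 is not a result about galectins. Lgals1 was at 708 and 1083 CPM in Vehicle and 263 and 389 CPM in TREAT, and was called lower (-1.79 ± 0.34, adjusted p = 0.0345 in edgeR). Lgals3 was at 339 and 474 CPM against 112 and 194 CPM and was called lower (-1.74 ± 0.34, adjusted p = 0.0356 in edgeR). Lgals8 was at 98.7 and 93.9 CPM against 64.1 and 64.5 CPM and was called lower (-0.92 ± 0.22, adjusted p = 0.0462 in edgeR). These are 3 lower calls among 5 tested members, where 6.78% of the 20265 genes tested were called, 5.67% of those tested lower and 1.11% higher in TREAT. Among genes of the members' own level the lower share was larger, 9.05% at 10 to 100 CPM and 10.7% at 100 CPM or more. Lgals9, at 199 and 254 CPM against 85.0 and 225 CPM (-0.87, adjusted p = 0.160), and Lgals3bp, at 262 and 338 CPM against 109 and 235 CPM (-1.13, adjusted p = 0.0799), were not called. Lgals7, not tested, was at 174 and 188 CPM in Vehicle and 22.6 and 46.7 CPM in TREAT. Leaving out any area but TREAT 2+3 ended all 3 calls, with adjusted p-values of 0.0512 to 0.149, and so did the filter at a mean of 10 CPM (0.0870 to 0.0886). In the fits without 1 area the difference was -2.13 to -1.51 for Lgals1, -2.22 to -1.38 for Lgals3 and -1.05 to -0.88 for Lgals8. It was -1.77 to -0.32 for Lgals9 and -1.82 to -0.67 for Lgals3bp. The number of tumour spots cannot be told apart from the level here, and all 11 striatum markers were called higher in TREAT.

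Whether the treatment difference itself differed between tumour and brain was tested as an interaction. edgeR called none of 20039 genes (0%), with 3667 at an unadjusted p under 0.05, while DESeq2 called 525. The members' interaction terms (tumour difference minus brain difference) were 0.59 ± 0.35 for Lgals1, 0.67 ± 0.30 for Lgals9 and 0.57 ± 0.27 for Lgals3bp, with adjusted p-values of 0.408, 0.283 and 0.308. Those of Lgals8 and Lgals3 were -0.27 ± 0.16 and -0.06 ± 0.43, with adjusted p-values of 0.400 and 0.956 in edgeR. In the fits without 1 area the term was -0.05 to 1.02 for Lgals1 and 0.19 to 0.96 for Lgals9.

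Genes with known ties to galectins were read from a list of 29 ligands, receptors and enzymes that build or cap their sugar ligands. In tumour spots 9 of 29 were called lower in TREAT and none higher, with a median of -0.37 where all genes had 0.04. The background was 20.4% of all genes called lower, and 35.6% and 46.3% of genes at 10 to 100 CPM and at 100 CPM or more, so 9 of 29 is not a result about the partners. Without Vehicle 1+4, 3 were called lower, with the border counted as tumour 4, and with the top 15% of spots by proliferation markers as tumour 5. Among the 23 with a mean of at least 10 CPM, fitted with genes of that level alone, 2 were called lower and 3 higher, and the median was only -0.03 from that of all genes. Under library totals, which raise the median of all genes to 0.50, 2 were called lower and 6 higher, and the list's median lay below that of all genes by the same distance (-0.41 under both scalings). Trem2, a lipid receptor of microglia and macrophages, was called lower under both (-0.98 and -0.51, adjusted p = 0.000709 and 0.0259 in edgeR), and so was Mgat1, which starts the complex branches of N-glycans (-0.97 and -0.49, adjusted p = 0.000993 and 0.0370). Trem2 changed sign when the border was counted as tumour (0.19, adjusted p = 0.692). The lysosomal glycoprotein gene Lamp1 (-0.90), basigin (Bsg, -0.82), Cd44 (-0.64), Mcam (-0.62), fibronectin (Fn1, -0.58) and B4galt1, which adds galactose (-0.57), were called lower with TMM over all genes and not with library totals. Cd44 and Trem2 also belong to cell type lists used here. Havcr2, the galectin-9 receptor Tim-3, differed by -0.05 ± 0.23 (adjusted p = 0.866 in edgeR); it was singled out after its values were seen. No partner gene was called in brain spots.

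The genes most alike over regions were not the same for each member. Lgals1, Lgals3, Lgals9 and Lgals3bp were also much alike each other, with r from 0.89 to 0.95 between them. The nearest genes therefore do not show a tie particular to 1 of these members. Over 47 sums of regions and areas from 14 regions, each member was set against 11396 genes with a mean of at least 10 CPM, and the values are descriptions, since the points share libraries. Lgals9 was most like Gbp2, Irgm1 and Parp12, known as interferon-induced genes (Pearson r 0.98, 0.98 and 0.97). Lgals3 was most like Tagln2, Psmb9 and Tap2 (0.98, 0.97 and 0.97), of which Psmb9 and Tap2 serve antigen processing. Lgals3bp was most like Tspo, Tnfrsf1a and Tgtp1 (all 0.96), and Lgals1 like Irf1, Akr1b8 and Hist1h2bl (all 0.97). Lgals7 was most like Pi4k2b, Ybx3 and Padi4 (all 0.96), of which Pi4k2b is among the 10 leading genes of the tumour cluster that fills the Vehicle areas. Lgals8 had the weakest likeness, to Phlda3, Lbh and Poll (0.85, 0.83 and 0.82), of which Phlda3 is a p53 target. Between members, r was highest for Lgals1 with Lgals3 (0.95) and lowest for Lgals8 with Lgals9 (0.51).

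Within the tumour the members showed little order from spot to spot. After thinning to 2000 UMIs, Pearson r over the 180 to 1249 tumour spots of an area was computed between each member and 15 lists, 90 pairs in all, and lay between -0.27 and 0.29. Only 2 pairs were past 0.05 in size with the same sign in every area: Lgals9 with interferon-stimulated genes (0.07 to 0.22) and Lgals3 with mesenchymal glioma genes (0.07 to 0.14). Of the 15 pairs of members, only Lgals3 with Lgals7 did so (0.07 to 0.14). These counts are sparse, the spots of an area share a library, and values this weak are no finding.

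Of the other galectin genes, Lgalsl was the highest in pooled tumour and brain spots. It was at 26.8 to 35.7 CPM in tumour spots and 48.7 to 64.5 CPM in brain spots, the reverse of the members' order. Lgals4 was at 3.93 to 6.98 CPM in tumour and 3.29 to 6.38 CPM in brain, and reached 27.0 CPM in choroid plexus spots of TREAT 2+3 and 14.6 and 18.6 CPM in oligodendrocyte-rich spots of the TREAT areas. Lgals2, Lgals12 and Grifin were each at most 2.70 CPM in both.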

How the data were processed

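The authors deposited raw counts of UMIs for every spot (Space Ranger 2.1.1 and mm10 are named in the submitters' processing notes) and tissue positions (other values, deposited by the authors). Of 32589 features, 304 with a deprecated label were left out. Counts were kept per feature, and 28 of the features used share a symbol with another. Spots of at least 500 UMIs were clustered over all areas (scanpy 1.11.5, 2000 variable genes without galectins, 30 principal components, 15 neighbours, Leiden resolution 0.6) and named from 3 or more markers among 50 leading genes. The minimum of 50 CPM for a leading gene was set after the clusters were seen, since a lower minimum left both tumour clusters under 3 proliferation markers. Doublet calling does not apply to spots. Counts were summed per area and region and tested with edgeR 4.0.16 (quasi-likelihood, TMM, Benjamini-Hochberg over all genes tested, threshold 0.05), with R 4.3.3. Alternatives included DESeq2 1.42.0. CPM were computed from the sums and log2 CPM with a prior count of 0.5. Scripts were tested on simulated counts. The members and lists were chosen with earlier results of these data known. Named genes were the 6 members, other galectins with a mean of at least 1 CPM, the 8 partner genes with the smallest p and the 3 genes most like each member.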

Additional observations from a re-analysis of the deposited data

How the results depend on the processing

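Each alternative changed 1 choice; those on the immunoglobulin-rich cluster, on brain over 10 steps from the tumour and on crossed pairing were chosen after seeing the data. Without 1 area a group holds a lone area, assumed to vary like the others. The causes of these changes were not tested.

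Genes called in tumour spots went from 6444 to 3941 (DESeq2), 2508 (mean of at least 10 CPM) and 4242 (top 15% proliferation spots as tumour), and to 2556 to 6531 leaving out 1 area. In brain spots they went from 0 to 483 (DESeq2), 4 (library totals), 7 (no gene filter), 2 (at least 1000 UMIs per spot), 4 and 3 (resolution 0.3 and 1.0), 1 (galectins kept in clustering), 1 (brain over 10 steps from tumour), 300 without TREAT 1+4 and 0 to 1014 leaving out 1 area. Over the whole tissue they went from 1373 to 3665 (DESeq2), 3605 (library totals), 0 of 11290 (10 CPM filter, with 4117 at an unadjusted p under 0.05 in edgeR), 14 without Vehicle 2+3, 310 without TREAT 1+4 and 7 to 4770 leaving out 1 area. Interaction calls went from 0 to 525 (DESeq2), 941 (no gene filter), 141 (resolution 1.0), 277 (brain over 10 steps from tumour), 934 without TREAT 1+4 and 0 to 1715 leaving out 1 area. The share of calls higher in TREAT was 38.5% in tumour (84.7% with library totals, 13.02% with DESeq2) and 16.3% over the whole tissue (81.0% with library totals).

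The tumour minus brain difference of Lgals9 and Lgals3bp became 4.13 and 3.20 with brain over 10 steps from the tumour. Leaving out 1 area, it ranged from 4.59 to 5.05 for Lgals1, 4.34 to 4.77 for Lgals3, 5.31 to 5.64 for Lgals7, 0.50 to 0.60 for Lgals8, 3.22 to 3.71 for Lgals9 and 2.34 to 2.78 for Lgals3bp. The Lgals8 share of tumour spots, TREAT minus Vehicle, went from -3.88 to -5.49 percentage points when thinned to 4000 UMIs.

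The replicate numbers 1+4 and 2+3 recur in both groups, but the labels do not say what they share, and deviations of same-numbered areas correlated at -0.16 in tumour, -0.15 in brain and 0.49 over the whole tissue. With the replicate block, 6827 genes were called in tumour spots, 6 in brain spots and 9100 over the whole tissue. With that block Lgals1 in tumour spots (-0.63, adjusted p = 0.0367 in edgeR) and Lgals9 (-1.04, adjusted p = 0.00628) and Lgals3bp (-1.23, adjusted p = 0.00147) over the whole tissue were called. A crossed pairing called 6186 genes in tumour and 58 in brain spots.

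Signs changed in these cases. In tumour spots Lgals9 was at -0.085 with the border included and -0.029 without TREAT 2+3, Lgals3bp at 0.051 with library totals and Trem2 at 0.19 with the border included. In brain spots Lgals3 was at 0.00097 without Vehicle 2+3 and Lgals9 at 0.025 without TREAT 1+4. The interaction of Lgals1 was -0.048 without TREAT 1+4. That of Lgals3 was 0.093 with library totals, 0.25 with at least 1000 UMIs per spot, 0.57 and 0.67 at resolution 0.3 and 1.0, 0.59 with galectins kept, 0.10 with the top 15% proliferation spots, 0.10 with brain over 10 steps from the tumour, 0.25 without Vehicle 1+4 and 0.42 without TREAT 2+3.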
